A study of Mus musculus with 4 samples.

Results

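Genes of protein folding in the endoplasmic reticulum (ER) and of the unfolded protein response (UPR) were followed in scRNA-Seq of mouse fracture callus and trabecular bone. The 32 genes were listed by symbol for their known roles, with earlier results of these data known, and all of them were found among the 32245 distinct symbols of the count matrices. Ddit3 was listed in 2 rows, which were summed, and every gene had at least 1 UMI in each library. The set held 9 ER lumen chaperones and cofactors, 5 lectin chaperones and disulfide isomerases, 3 translocon genes, 4 genes of ER-associated degradation (ERAD), 4 stress sensors or UPR transcription factors and 7 genes of the PERK-ATF4 arm. Cells came from 20-week-old C57BL/6J male mice given prednisolone, a synthetic glucocorticoid (GC), at 6.25 mg/kg/d, or a placebo (control), and tissue was taken at week 2. Each tissue and treatment gave 1 library, so that GC was compared with control in callus and in trabecular bone without replicates, and the number of mice per library is not given in the sources used here. Slow-release pellets under the skin are named in the labels of all 4 libraries, whereas the text of the study names daily injection for the fracture model. No transgene or mutant allele is named for any group.

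Secretory and membrane proteins enter the ER through the Sec61 channel and are folded there by the BiP and GRP94 chaperones, by the lectin chaperones calnexin and calreticulin and by disulfide isomerases. Chains that fail to fold are returned to the cytosol for degradation. The UPR fits this capacity to the load through the sensors IRE1, ATF6 and PERK. IRE1 splices Xbp1 mRNA and ATF6 is cut free from the membrane, after which XBP1 and ATF6 switch on chaperone and ERAD genes, while PERK slows translation and lets ATF4 be made. Chondrocytes, osteoblasts and plasma cells are known for a large ER, since they secrete collagens, bone matrix or antibodies in bulk.

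The ER stress response element (ERSE), CCAAT and CCACG with 9 bases between them, is a promoter motif known to be bound by ATF6 together with NF-Y, and it is shown here because it marks a subset of the genes by sequence. RefSeq promoter windows (GRCm38.p6), from 250 bases before to 50 bases after the gene start, were given for 28 of the 32 genes, all but Hyou1, Manf, Sec61a1 and Atf6. Both strands were searched for the ERSE, for ERSE-II (ATTGG and CCACG with 1 base between them), for the UPR element TGACGTGG and for the amino acid response element TGATGNAAT. The ERSE lay in 8 of the 28 windows (28.6%), those of Calr, Canx, Creld2, Dnajc3, Hsp90b1, Hspa5, Pdia6 and Syvn1, against 37 of 27025 windows of all genes (0.137%). ERSE-II lay in 2 of the 28, those of Dnajb11 and Herpud1, against 12 of all windows (0.0444%). In these exact letters, neither of the other 2 elements was found in a member's window, and 0.714% and 1.08% of all windows held them. Variants of these letters and sites outside the windows were not searched, so a member may still hold such an element. The ERSE is printed, read 5′ to 3′ on the strand of the gene with the motif in capitals and 5 bases on each side, for Hspa5 (chr2:34772020-34772048, plus strand), the nearer of 2 sites of Hsp90b1 (chr10:86705528-86705556, minus strand), Calr (chr8:84847070-84847098, minus strand), Creld2 (chr15:88819515-88819543, plus strand), Pdia6 (chr12:17266486-17266514, plus strand) and Syvn1 (chr19:6046527-6046555, plus strand), with the ERSE-II of Herpud1 (chr8:94386372-94386392, plus strand) as the last line. In Hsp90b1, Calr and Creld2 the motif was on the opposite strand and starts with CGTGG.
Hspa5: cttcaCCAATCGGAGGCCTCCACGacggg
Hsp90b1: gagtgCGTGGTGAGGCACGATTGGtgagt
Calr: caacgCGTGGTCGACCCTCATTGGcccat
Creld2: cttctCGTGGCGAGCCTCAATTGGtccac
Pdia6: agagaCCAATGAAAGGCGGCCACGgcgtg
Syvn1: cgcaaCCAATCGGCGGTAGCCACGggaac
Herpud1: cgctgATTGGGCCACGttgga
All 7 printed sites lay before the RefSeq start of their gene, at 44 to 162 bases from it by their far end. The Hspa5 site is also inside the gene as annotated by GENCODE, where the start lies further upstream.

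After filtering, 6706, 6890, 3806 and 4602 cells were kept, first for callus (control, then GC) and then for trabecular bone in the same order. The whole matrices held 95852254, 64388215, 41239842 and 45876714 UMIs, those of GC callus from called cells only. Classes were named from marker genes, so each name stands for cells like that class, and 0.782% to 9.80% of the cells of a library stayed unnamed. Unnamed cells are in no class value. In callus they included cluster 10.0 (51 control and 77 GC cells) and cluster 21 (0 control and 94 GC cells). Col1a1 and Ibsp were among the leading genes of both, so some cells with these genes lie outside the class of osteoblasts or osteocytes. Between any pair of libraries 7 to 15 called barcodes were shared, at most 0.270% of the smaller. The matrix of GC callus held called cells only, while the other 3 also held empty droplets. In trabecular bone the mature neutrophils of control and GC fell into different clusters, and only 6.04% of the GC cells lay in clusters with at least 15 cells of each library, against 99.7% of the control cells. The glucocorticoid target Fkbp5 was higher in GC in mature neutrophils of trabecular bone (11.5 CPM in control, 103 CPM in GC) and in chondrocytes of callus (20.0 and 30.6 CPM). The sum of 12 listed glucocorticoid targets was higher in GC in these classes (2549 and 4455 CPM, then 3021 and 4065 CPM), but not in all. In callus it was lower in GC in mature neutrophils (5126 and 3704 CPM), endothelial cells (3782 and 3023 CPM), B cells and erythroblasts.

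A level is given as CPM, the UMIs of a gene over the summed UMIs of all cells of a class in a library, brought to the same total in every class and library, for classes of at least 15 cells. Intervals are exact 95% intervals that cover counting error only. Levels are compared between classes and libraries for the same gene, not between genes. Over all cells the 32 genes summed to 6010 CPM in control callus, 5761 CPM in GC callus, 3280 CPM in control trabecular bone and 3675 CPM in GC trabecular bone.

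Plasma cells held far more of this RNA than any other class of callus. Their summed level was 19245 CPM in control (21 cells) and 18348 CPM in GC (19 cells). Next in control callus came promyelocytes (7554 CPM), stromal or skeletal progenitors (7060.3 CPM), chondrocytes (6794 CPM) and plasmacytoid dendritic cells (6727 CPM). The name promyelocytes stands throughout for promyelocytes or granulocyte-monocyte progenitors, and mast cells for mast cells or basophils. The lowest sums in control callus were those of B cells (3303 CPM), T cells (2946 CPM) and mature neutrophils (2642 CPM). In control trabecular bone, where fewer than 15 plasma cells were found, promyelocytes (7801 CPM), mast cells (6997 CPM), plasmacytoid dendritic cells (6406 CPM) and monocytes (5849 CPM) were highest. Erythroblasts (1942 CPM), immature neutrophils (1928 CPM) and mature neutrophils (1244 CPM) were lowest there. Promyelocytes, immature neutrophils and mature neutrophils therefore spanned the range of control trabecular bone, with promyelocytes at its top and mature neutrophils at its bottom. These 3 classes kept that order in GC (8201, 2268 and 1615 CPM). Since the first may hold granulocyte-monocyte progenitors, they are not a pure neutrophil series.

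**Figure D1:**
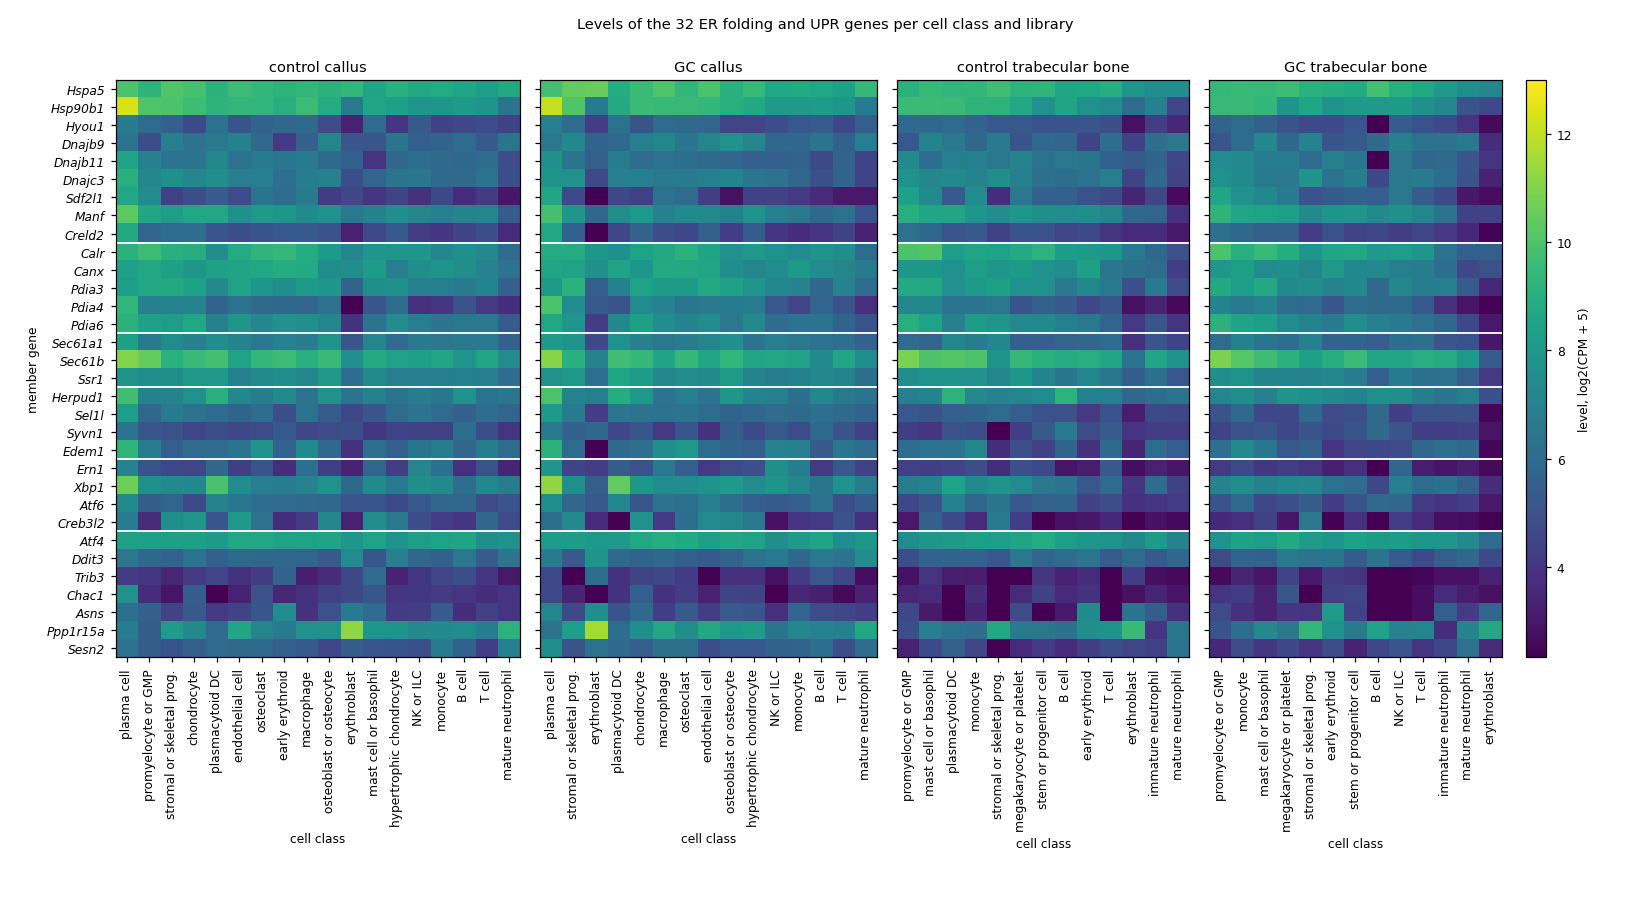
Level of each of the 32 genes (rows, grouped by role) in each cell class of each library (columns), as log2(CPM + 5) in colour. Plasma cells hold the highest level of 18 genes in control callus and of 19 in GC callus, and promyelocytes that of 8 in control and 9 in GC trabecular bone.

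Of the ER lumen chaperones, all but Hspa5 and Dnajb9 peaked in plasma cells of callus. Hsp90b1 encodes GRP94, the HSP90 of the ER. It reached 5226 CPM in plasma cells of control callus (4932 to 5533 CPM) and 4306 CPM in those of GC callus (4019 to 4609 CPM), with 1059 CPM in promyelocytes and 990.3 CPM in stromal cells of control callus next. In mature neutrophils it was at 82.7 CPM in control callus and 19.0 CPM in control trabecular bone. Plasma cells also stood above every other class of their library for Manf, a secreted cofactor of BiP (1266 CPM in control, 920.2 CPM in GC), for Creld2, an ER chaperone-like protein (447 and 403 CPM), for Dnajc3, a J-domain partner of BiP (518 and 222 CPM), and for Dnajb11, another such partner (372 and 202 CPM). For Dnajc3, stromal cells of GC callus were close to plasma cells (207 CPM). Sdf2l1, part of a BiP complex, was at 412 and 388 CPM in plasma cells and at 339 and 384 CPM in promyelocytes of trabecular bone, against 1.21 CPM in mature neutrophils of control trabecular bone.

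Hspa5, which encodes BiP, was spread more evenly. In control callus it ran from 313 CPM in T cells to 1108 CPM in stromal cells and 1009 CPM in plasma cells, and chondrocytes held 939 CPM. The intervals of stromal (1048 to 1169 CPM) and plasma cells (882 to 1149 CPM) overlapped. In control trabecular bone it ran from 175 CPM in immature neutrophils to 835 CPM in stromal cells. Dnajb9, a J-domain protein that brings BiP to IRE1, was highest in osteoblasts or osteocytes of callus (141 CPM in control, 206 CPM in GC) and at only 79.7 and 87.9 CPM in plasma cells. Hyou1, a large HSP70-like chaperone, ran from 4.99 CPM in erythroblasts to 102 CPM in plasma cells of control callus.

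The lectin chaperones and disulfide isomerases differed from each other in the class that held most. Calr, calreticulin, was highest in mast cells (1079 CPM in control, 703 CPM in GC) and promyelocytes (989.6 and 1015 CPM) of trabecular bone, with overlapping intervals in control (960.5 to 1208 and 957 to 1023 CPM), and was at 26.4 and 45.4 CPM in mature neutrophils there. Pdia4 was highest in plasma cells (642 CPM in control callus, 998 CPM in GC callus), and Pdia6 in plasma cells of callus (571 and 414 CPM) and promyelocytes of trabecular bone (526 and 572 CPM). Pdia3, the isomerase that works with both lectin chaperones, was highest in stromal cells of callus (438 and 565 CPM). In trabecular bone it was highest in promyelocytes (455 and 440 CPM), as Pdia6 was. Canx, calnexin, was highest in early erythroid cells of control callus (486 CPM), with macrophages close by (453 CPM) and overlapping intervals (426 to 552 and 397 to 514 CPM).

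In the translocon group Sec61b, a small subunit of the Sec61 channel, was highest in plasma cells of callus and promyelocytes of trabecular bone. It was at 2067 and 2125 CPM in plasma cells of callus and at 1846 and 1908 CPM in promyelocytes of trabecular bone, against 219 and 278 CPM in mature neutrophils and 78.6 and 38.6 CPM in erythroblasts of trabecular bone. Sec61a1, the channel itself, was highest in plasma cells of callus (332 and 269 CPM). Ssr1, a translocon-associated subunit, was highest in plasmacytoid dendritic cells of callus (269 and 384 CPM), with osteoblasts or osteocytes close to them in control (264 CPM).

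In callus the ERAD genes peaked in plasma cells as well. Herpud1, a scaffold of the ERAD complex, was at 849.6 and 1003 CPM there, and was next in plasmacytoid dendritic cells (543 and 479.9 CPM). Edem1, which helps to select glycoproteins for degradation, was at 637 and 574 CPM in plasma cells and at 214 and 254 CPM in osteoclasts, and Sel1l, the adaptor of the ERAD ubiquitin ligase, at 309.8 and 279 CPM in plasma cells. Syvn1, the ligase itself, was low throughout, at 79.7 and 98.2 CPM in plasma cells and 18.5 and 30.7 CPM in chondrocytes. In control trabecular bone B cells were the highest class of Syvn1 (104 CPM) and of Herpud1 (599 CPM), the latter close to plasmacytoid dendritic cells (591 CPM).

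Each of the sensors and factors had a pattern of its own. Xbp1, which encodes the factor of the IRE1 branch, was at 1584 CPM in plasma cells of control callus (1424 to 1757 CPM) and 2368 CPM in those of GC callus (2156 to 2595 CPM), and at 968 and 1372 CPM in plasmacytoid dendritic cells. No other class passed 258 CPM in callus. Ern1, which encodes IRE1, was highest in NK or innate lymphoid cells (141 and 190.0 CPM) and plasma cells (133 and 233 CPM), with overlapping intervals in control (108 to 182 and 89.6 to 189.5 CPM). Creb3l2, a membrane-bound factor known for its part in secretion by chondrocytes, was found in endothelial cells (273 and 171 CPM), chondrocytes (232 and 206 CPM) and stromal cells (193 and 166 CPM) of callus, and was at 0.848 CPM in mature neutrophils and 2.13 CPM in B cells of control trabecular bone. Atf6 was highest in plasma cells of callus (164 and 196 CPM) and in plasmacytoid dendritic cells of control trabecular bone (126 CPM).

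The genes of the PERK-ATF4 arm peaked in several different classes. Ppp1r15a, the phosphatase subunit that lets translation resume, was highest in erythroblasts, at 2372 CPM in control callus, 3018 CPM in GC callus, 748 CPM in control trabecular bone and 436 CPM in GC trabecular bone, although stromal cells passed erythroblasts in the last (665 CPM). It was at 10.4 and 8.19 CPM in immature neutrophils of trabecular bone. Asns, asparagine synthetase, was highest in early erythroid cells (174 CPM in control callus, 162 and 294 CPM in trabecular bone), and Sesn2, a stress-induced sestrin, in mature neutrophils of control callus (117 CPM) and of trabecular bone (79.7 and 76.5 CPM), whereas in GC callus it was highest in plasma cells (181 CPM). Ddit3, which encodes the factor CHOP, was highest in erythroblasts of callus (175 and 223 CPM), and Atf4 in endothelial cells and osteoclasts of control callus (411 and 423 CPM, with intervals of 351 to 478 and 396 to 450.5 CPM). In GC callus Atf4 was highest in macrophages (499 CPM). In trabecular bone it was highest in stem or progenitor cells of control (465 CPM) and megakaryocytes of GC (438 CPM). Chac1, which breaks down glutathione, reached 204 CPM in plasma cells of control callus and stayed at or under 37.9 CPM in every other class of that library, and Trib3, a pseudokinase, stayed at or under 61.5 CPM there.

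Over the 59 combinations of class and library, the level of a member was correlated with the mean of the other members as a description, on the log2(CPM + 5) scale. These points share 4 libraries, and their depth differs. Pearson's r was highest for Hsp90b1 (0.95), Pdia4 (0.87) and Sec61a1 (0.85). The 5 lowest were all genes of the PERK-ATF4 arm, Ppp1r15a (-0.23), Ddit3 (0.00), Asns (0.03), Trib3 (0.19) and Sesn2 (0.20). Outside the set, the 10 genes with the pattern most like the mean of the members were Stt3a (r = 0.90), Snd1, Gorasp2, Clptm1l, Ssr3, Magt1, Ostc, Ganab, Rpn2 and Spcs3 (r = 0.85).

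The share of cells with at least 1 UMI of a member depended strongly on depth. In chondrocytes the median share over the 32 genes was 83.2% in control and 53.3% in GC, with median UMI counts of 25289.5 and 5471 per cell. After each cell was thinned to 1000 UMIs it was 12% in control and 12% in GC (1908 and 2209 cells, with 20 and 151 shallower cells left out). At that depth Xbp1 was seen in 14.0% of control (12.5 to 15.7%) and 26.2% of GC chondrocytes (24.4 to 28.1%), while the unthinned shares ran the other way (85.1% and 74.6%). Manf was seen in 27.6% and 18.0% of thinned cells. In plasma cells the thinned median was 23.8% in control and 23.7% in GC, and in mature neutrophils of callus 4.19% and 4.25% (unthinned 90.5%, 81.6%, 5.91% and 5.78%). Since every cell has an ER, no class can serve as a background that lacks these genes, whatever free RNA adds to a share. Empty droplets held the 32 genes at a sum of 4474 CPM in control callus, 2302 CPM in control trabecular bone and 2573 CPM in GC trabecular bone.

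The question whether GC treatment went with a different level of these genes was then asked class by class. The measure was the log2 of (CPM + 5) in GC over (CPM + 5) in control, for genes with at least 50 UMIs over both libraries, and a gene is called higher or lower where it was at least 1.5-fold apart. The sum of 5 CPM understates the change of low genes, and ratios of CPM are given without it. With 1 library per group no test of a difference and no replicate error can be given. Classes with at least 15 cells in each library could be compared, 15 in callus and 12 in trabecular bone, and 7 to 32 members passed the UMI minimum in a class. Trib3 passed it in 5 callus classes and in none of trabecular bone. Of 107 values called with more than 3 UMIs in each library, 29 stayed called under every other setting that could score them. Those 29 could be scored under 9 to 16 settings each. Settings with another UMI minimum keep the same ratio, so they could not lose a call. All classes of a tissue share the same pair of libraries, so they are not independent, and their own values are set side by side. The median over the members tested ran from -0.15 in plasma cells to 0.34 in erythroblasts of callus, of which only 7 members were tested, and from -1.11 in erythroblasts to 0.38 in mature neutrophils of trabecular bone. The median over all genes was within 0.1 of 0 in most classes, and outside it in B and T cells of callus (-0.18 and -0.17) and in B cells, erythroblasts and mature neutrophils of trabecular bone (-0.59, -1.10 and 0.27), where members are read against that shift.

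**Figure D2:**
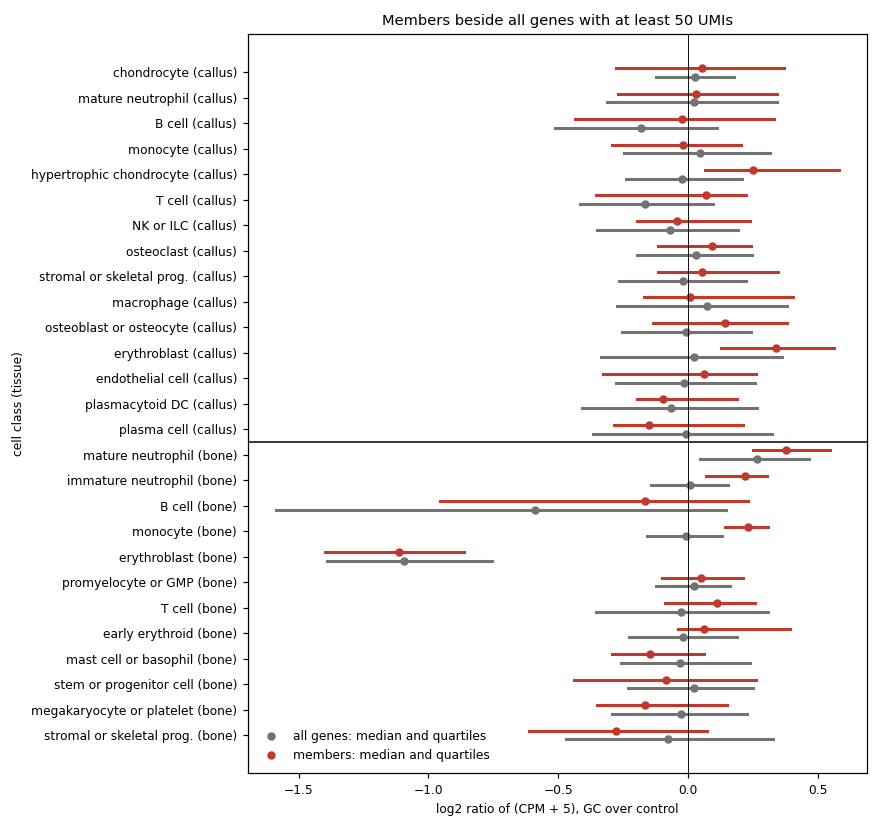
Median log2 ratio, GC over control, over the members tested in each class (red) beside the median over all genes tested (grey), with bars for the quartiles and callus above the line and trabecular bone below it. Erythroblasts of trabecular bone lie at -1.11 for the members and -1.10 for all genes, and most other classes lie near 0 for both.

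Chondrocytes were the class with the most UMIs (1928 cells in control, 2360 in GC). Over the whole class the members lay apart by role. All 32 were tested and their median was 0.05, against 0.03 over all genes. The ER lumen chaperones had a median of -0.29, the lectin chaperones and isomerases -0.04, the translocon 0.00, ERAD 0.23, the sensors and factors 0.43 and the PERK-ATF4 arm 0.28. At 1.5-fold, 3 members were higher in GC, where 2.21% of all genes were, and 2 were lower, where 2.37% were. Members of a role did not all lie on the same side, since Dnajb9 (0.57) was above 0 among the ER lumen genes and Ddit3 (-0.61) below 0 in the PERK-ATF4 arm.

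Of the genes called in chondrocytes, Manf was at 412 CPM in control and 257 CPM in GC, a ratio of 0.624 (0.607 to 0.641, log2 -0.67). Ddit3 was at 78.1 and 49.4 CPM, a ratio of 0.633 (0.595 to 0.673, log2 -0.61). Both were lower in GC, the former a chaperone cofactor and the latter the gene of CHOP, which is known for promoting cell death under lasting stress. Xbp1 was at 152 and 244 CPM, a ratio of 1.60 (1.55 to 1.66, log2 0.66), Asns at 35.7 and 58.4 CPM (log2 0.64) and Syvn1 at 18.5 and 30.7 CPM (log2 0.61), all higher in GC. Of the chaperones of broad use, Hspa5 was at 939 and 766 CPM (log2 -0.29), Hsp90b1 was at 821 and 781 CPM (log2 -0.07) and Calr was at 504 and 358 CPM (log2 -0.49). Dnajb9 (log2 0.57), Atf6 (0.47), Pdia4 (0.42) and Ern1 (0.40) were higher and Sdf2l1 (-0.50), Creld2 (-0.41) and Dnajb11 (-0.34) lower, each short of 1.5-fold. By sequence, the 8 genes with an ERSE had a median of -0.28 and the 20 with a window and no ERSE 0.16. The latter include Dnajb11 and Herpud1, which hold an ERSE-II. The same groups were at 0.19 and 0.32 in hypertrophic chondrocytes, 0.03 and 0.26 in osteoblasts or osteocytes and -0.09 and 0.18 in osteoclasts. They were at 0.07 and 0.04 in stromal cells of callus, and at 0.34 and 0.16 in immature neutrophils of trabecular bone. The order was thus not the same in all classes. In callus the genes with an ERSE were the higher group in mature neutrophils (0.22 and 0.00) and monocytes (0.11 and -0.09). They were the lower group in macrophages (-0.14 and 0.16) and in NK or innate lymphoid cells (-0.13 and 0.21).

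Control and GC chondrocytes were spread unevenly over the clusters, although 96.4% and 96.3% of them lay in clusters with at least 15 cells of each library. The part of depth and of cell calling in this spread was not tested. Of the GC chondrocytes 1285 lay in cluster 1, which held 88 control cells and whose cells were shallow (median of 2541 UMIs), while clusters 2, 7 and 9 held 852, 475 and 444 control and 338, 437 and 212 GC cells. Within clusters 2, 7 and 9 the log2 ratio of Ddit3 was -0.93, -0.44 and -1.07, that of Xbp1 0.43, 0.89 and 0.62, and that of Manf -0.41, -0.17 and -0.57. Each gene kept its side in these 3 deep clusters, and Manf was short of 1.5-fold in each of them. The median of the ER lumen chaperones was -0.06, -0.17 and -0.23 in clusters 2, 7 and 9, and 0.22 in cluster 1. Each of these lay above the value of the whole class. Medians of the other roles and of the genes with an ERSE were not taken within clusters. In cluster 1 the median over the members was 0.48, against 0.32 over all genes, and there Xbp1 (1.23) and Asns (1.42) were higher. Hspa5 (0.51) and Sdf2l1 (0.48), which were below 0 over the whole class, were above 0 in cluster 1, and Hyou1 was above 0 there (1.29) and in clusters 2, 7 and 9 (0.35, 0.20 and 0.19). The call of Manf was lost when no doublets were removed (-0.49) and with a finer clustering (-0.52), that of Xbp1 under 4 settings (down to 0.43), and that of Ddit3 under 5 (-0.21 with each cell weighted equally). That of Syvn1 was kept under 7 of 15 (down to 0.32).

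**Figure D3:**
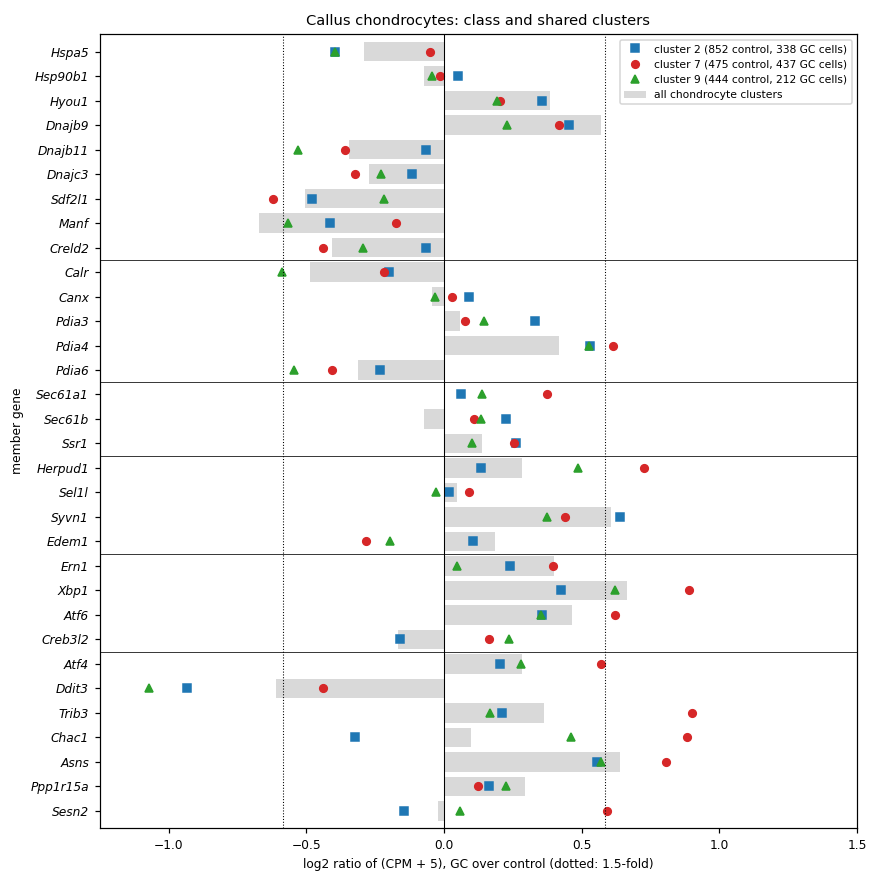
Log2 ratio, GC over control, of each of the 32 genes in all chondrocytes of callus (bars) and in clusters 2, 7 and 9 (points), with dotted lines at 1.5-fold. Ddit3 and Manf lie below 0 in all of them, and Xbp1 and Asns above 0.

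Hypertrophic chondrocytes (298 cells in control, 437 in GC) had more members called higher in GC than lower. The median over 32 was 0.25, against -0.02 over all genes, and 8 members were called higher (5.31% of all genes were) and 0 lower (5.07% were). Those called were Xbp1 (94.3 CPM in control, 173 CPM in GC, log2 0.84), Atf6 (21.7 and 41.0 CPM, 0.79), Ern1 (15 and 25.2 CPM, 0.59), Atf4 (218 and 351 CPM, 0.67), Asns (13.5 and 31.6 CPM, 0.98), Dnajb9 (84.9 and 142 CPM, 0.71), Pdia4 (63.6 and 108 CPM, 0.72) and Herpud1 (78.2 and 131 CPM, 0.71). They thus included the genes of the sensors IRE1 and ATF6 and of the factors XBP1 and ATF4. Hspa5 (0.39) and Hsp90b1 (0.43) were above 0 as well, and Ddit3 (114 and 75 CPM, -0.57) was again below 0. Here too the clusters differed, since 259 of the GC cells lay in a cluster with 12 control cells, and only 39.1% of the GC cells lay in clusters with 15 cells of each library. The border with chondrocytes was thin. Marker scores for hypertrophic chondrocytes and chondrocytes were 3.37 and 3.36 in that cluster, and 3.81 and 3.77 in the cluster with 191 control cells. Col10a1, a marker of hypertrophic chondrocytes, was also the leading gene of cluster 1, which was named chondrocyte. In the cluster with 56 control and 117 GC cells the median was 0.54 (14 of 30 members called higher, where 7.35% of all genes were), with Hspa5 at 1.36. The cluster with 191 and 21 cells had a median of 0.12, with 4 of 29 members called higher and 3 lower. Of all genes, 9.21% were higher and 15.6% lower in that cluster. Atf6, higher in the class as a whole, was at 0.87 in the former and -1.61 in the latter, so its direction was not the same in both. With a coarser clustering the class median was 0.56, and each of the 8 calls was lost under 1 to 6 of the other settings, that of Asns at 0.36 with at least 500 genes per cell.

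The bone-forming and bone-resorbing classes differed in single genes. In osteoblasts or osteocytes (62 and 57 cells) Manf (205 and 126 CPM, log2 -0.68), Creld2 (28.2 and 14.7 CPM, -0.75) and Pdia6 (142 and 89.3 CPM, -0.64) were called lower, 3 of 27 tested against 7.23% of all genes. Syvn1 (0.71) and Sesn2 (0.67) were called higher, 2 against 6.55%, and the calls of Creld2, Pdia6 and Sesn2 were each lost under at least 3 settings. In osteoclasts (113 and 121 cells) Manf (262 and 167 CPM, -0.64) and Chac1 (-0.70) were lower, 2 of 32 against 5.34%, and Xbp1 (115 and 175 CPM, 0.59) was higher, 1 against 5.12%, a call lost under 7 of 14 settings, while that of Manf was lost with cells thinned to 1000 UMIs (-0.31). In stromal or skeletal progenitors (84 and 78 cells) only Syvn1 (0.65) was called, and lost under 4 of 12 settings (down to 0.29), 1 of 27 against 5.09% higher (0 against 7.79% lower), and Hspa5 was at 1108 and 1372 CPM (0.31).

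Macrophages of callus (68 cells in each library) had the largest ratios of Dnajb9 and Pdia4 among the callus classes. Dnajb9 was at 43.6 CPM in control and 142 CPM in GC (23 and 58 UMIs), a ratio of 3.26 (1.98 to 5.53). Pdia4 was at 51.1 and 129.7 CPM, a ratio of 2.54 (1.57 to 4.19), Hspa5 at 663 and 1062 CPM, a ratio of 1.60 (1.39 to 1.85), and Ppp1r15a at 206 and 401 CPM, a ratio of 1.94 (1.52 to 2.50). These 4 of 24 members tested were called higher in GC, where 12.9% of all genes were, and 0 lower, where 9.85% were. Hsp90b1 (-0.17), Calr (-0.13) and Canx (0.01) were near 0, and the median over the tested members was 0.01. The call of Hspa5 was lost with cells thinned to 1000 UMIs (0.47).

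In plasma cells, the class with the highest levels, the members were of mixed direction (median -0.15 over 24). Dnajc3 was at 518 and 222 CPM (log2 -1.20), Dnajb11 at 372 and 202 CPM (-0.87) and Chac1 at 204 and 20.7 CPM (46 and 4 UMIs), 3 called lower where 16.8% of all genes were. Pdia4 (642 and 998 CPM, 0.63), Ern1 (133 and 233 CPM, 0.79) and Sesn2 (75.2 and 181 CPM, 1.21) were called higher, 3 where 13.4% were. Xbp1, at 0.58, had a ratio of 1.49 (1.30 to 1.72). With 21 and 19 cells these values rest on few cells, and the median became 0.36 with cells thinned to 1000 UMIs and 0.20 to 0.24 under 3 other settings.

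In the lymphoid classes of callus the share of members called lower was near that of all genes. In B cells (630 and 377 cells) Manf was at 131 and 55.1 CPM (log2 -1.18), Dnajb11 at 54.1 and 20.9 CPM (-1.19), Dnajc3 at 59.3 and 25.3 CPM (-1.09) and Pdia3 at 100.1 and 56.6 CPM (-0.77), 4 of 26 called lower where 20.8% of all genes were. In T cells (287 and 393 cells) Manf (139 and 73.6 CPM, -0.87), Pdia6 (-0.87), Dnajc3 (-0.63) and Creb3l2 (-0.78) were called lower, 4 of 24 against 13.5%. Manf was also lower in plasmacytoid dendritic cells (406 and 192 CPM, -1.06), with 1 of 11 members called lower against 16%. The sum of secreted cargo was also lower in GC in most callus classes. It was higher in GC only in osteoblasts or osteocytes and in stromal cells. The 25 secreted cargo genes, of skeletal matrix, antibodies and neutrophil granules, summed to 10367 CPM in B cells of control callus and 5919 CPM in those of GC callus, to 5605 and 2316 CPM in T cells, to 6974 and 3766 CPM in mature neutrophils and to 3756 and 1162 CPM in osteoclasts, with 0 to 8 of the 25 at 0 in a callus class. Macrophages (4297 and 1546 CPM) and endothelial cells (4751 and 1715 CPM), among others, were lower as well. Manf was at 214 CPM in the empty droplets of control callus, and no empty droplets of GC callus were at hand. The list holds genes that B cells and neutrophils make themselves, so the sums do not measure RNA of other cells there, and the part of free RNA in these values was not tested.

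Other members were higher in GC in immune classes of callus. In mature neutrophils (1683 and 1385 cells) Ddit3 was at 86.8 CPM in control and 185 CPM in GC, a ratio of 2.13 (1.79 to 2.54), Hspa5 at 443 and 686 CPM (1.55, 1.43 to 1.68) and Hyou1 at 15.9 and 40.8 CPM (2.57, 1.72 to 3.90). These 3 of 26 were called higher, where 12.8% of all genes were, and Sesn2 (117 and 66.2 CPM) and Creb3l2 (-0.98) were called lower, 2 where 11.6% were. Of the control cells 1019 lay in a cluster with 47 GC cells, and 1151 of the GC cells in one with 524 control cells. Ddit3 was higher in GC within both (1.88 and 0.62) and in the third cluster (1.14), and so was Hspa5 (0.70, 0.55 and 0.59). Sesn2 was at -0.05 and 0.22 in the larger clusters and at -1.49 in the smallest, cluster 11 (140 control and 187 GC cells). It was thus called lower within cluster 11 only. That cluster lay near the border with immature neutrophils, with marker scores of 4.57 for mature and 3.36 for immature neutrophils. Its leading genes began with Ngp, Camp and Ltf and held 3 markers of each class. The part of this border in the Sesn2 call was not tested. Ddit3 was also called higher in T cells (37.0 and 77.8 CPM, log2 0.98) and in NK or innate lymphoid cells (56.5 and 96.1 CPM, 0.72). In these classes it was the only member called higher (T cells, 1 against 3.75% of all genes) or stood beside Edem1 (NK or innate lymphoid cells, 0.59, 2 against 6.43%), and Atf4 (-0.66), Ppp1r15a (-0.93) and Pdia6 (-0.76) were called lower in the latter, 3 against 11.5%. In B cells Hyou1 (0.80), Pdia4 (0.81) and Sel1l (0.62) were called higher, 3 against 4.09%.

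Monocytes of callus (611 and 551 cells) had Hyou1 (16.2 and 32 CPM, log2 0.80) and Ern1 (68.8 and 106 CPM, 0.59) called higher, 2 of 30 against 10.2% of all genes. Sesn2 was called lower (98.2 and 48.4 CPM, -0.95), 1 against 8.78%, a direction that turned (0.13) when cells were taken by a UMI cutoff alone. In endothelial cells (50 and 79 cells) Herpud1 (153 and 78.2 CPM, -0.92) and Creb3l2 (-0.66) were called lower, 2 of 21 against 8.91%, and none higher (background 7.39%). In erythroblasts of callus (54 and 65 cells), where 7 members passed 50 UMIs, Hspa5 (674 and 1481 CPM, 1.13) and Calr (139.8 and 243 CPM, 0.78) were called higher, 2 against 12.5%.

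Set side by side over the callus classes that could test them, some members lay mostly on 1 side of 0 and others on both. The log2 ratio of Manf ran from -1.18 to 0.22 (14 classes, highest in hypertrophic chondrocytes), that of Pdia6 from -0.87 to -0.07 (13 classes) and that of Dnajb11 from -1.19 to 0.04 (12 classes). Higher ranges were those of Dnajb9, 0.15 to 1.60 (11 classes), Pdia4, 0.26 to 1.26 (10 classes), Hyou1, 0.05 to 1.13 (8 classes), and Ern1, 0.25 to 0.79 (8 classes). Isomerases of the same family, Pdia4 and Pdia6, therefore lay on opposite sides of 0. Calls in both directions were made for Ddit3 (-0.61 to 1.05, 3 higher and 1 lower), Sesn2 (-0.95 to 1.21, 2 and 2), Ppp1r15a (-0.93 to 0.94, 1 and 1), Herpud1 (-0.92 to 0.71, 1 and 1) and Atf4 (-0.66 to 0.67, 1 and 1). Since every class here comes from the same pair of libraries, an offset between the libraries cannot be told apart from a difference between treatments.

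**Figure D4:**
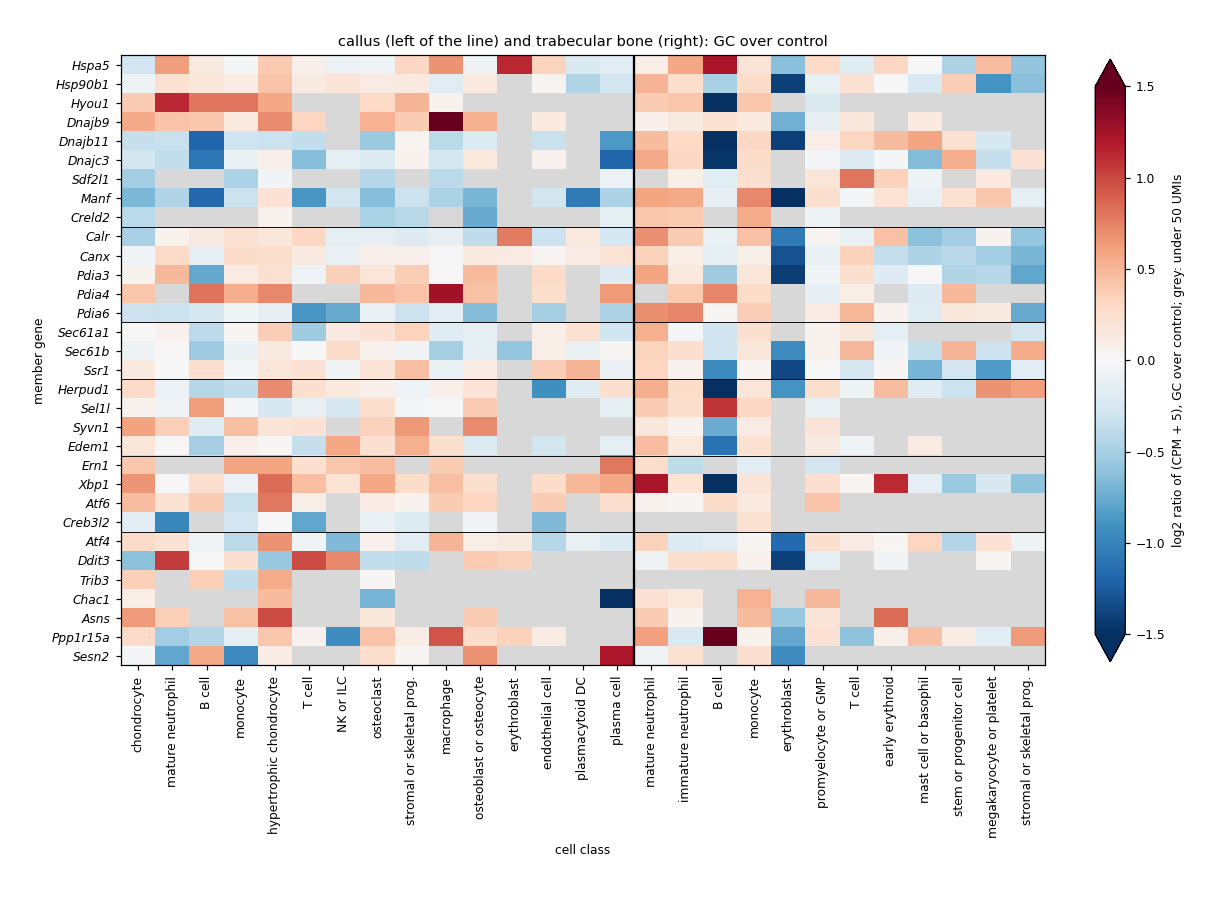
Log2 ratio, GC over control, of each of the 32 genes (rows) in each class compared (columns), with callus left of the line and trabecular bone right of it, and with genes under 50 UMIs in grey. In callus the rows of Manf and Pdia6 are mostly below 0 and those of Dnajb9 and Pdia4 above it, and the column of erythroblasts of trabecular bone is below 0 throughout.

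In mature neutrophils of trabecular bone (1618 and 2270 cells) the member with the largest ratio was Xbp1. It was at 16 CPM in control (132 UMIs) and 44.0 CPM in GC (438 UMIs), a ratio of 2.75 (2.26 to 3.37), and it stayed called under all 16 other settings, the shift of all genes included (log2 from 0.83 to 1.45). Manf (9.45 and 16.7 CPM, log2 0.59), Calr (26.4 and 45.4 CPM, 0.68), Pdia3 (0.59), Pdia6 (0.69) and Ppp1r15a (85.4 and 134 CPM, 0.62) were called too, so that 6 of 28 members tested were higher, where 14.5% of all genes were, and 0 lower, where 2.49% were. Less the median of all genes, those 5 were no longer called. Nearly all GC cells lay in clusters with at most 3 control cells, so the class and the library cannot be told apart here. In the 3 clusters with at least 15 cells of each library the member medians were 0.02, 0.18 and -0.14, and Xbp1 could be tested in 2 of them, with 0.40 (781 control and 26 GC cells) and 1.16 (590 and 76 cells). Ppp1r15a, tested in the same 2, was at -0.27 and -1.32, below 0 and not above it as in the whole class.

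The other myeloid classes of trabecular bone showed small ratios. In monocytes (293 and 311 cells) the members had a median of 0.23 over 31, against -0.01 over all genes. Manf was at 235 CPM in control and 389.6 CPM in GC, a ratio of 1.66 (1.54 to 1.79), and was the only member called higher (1 of 31, where 1.47% of all genes were). Creld2 (34.7 and 53.6 CPM, log2 0.56), Chac1 (0.52), Calr (386 and 524 CPM, 0.44) and Hyou1 (0.41) followed short of 1.5-fold, and 0 were called lower (2.02% of all genes were). Manf thus lay on the higher side in monocytes of trabecular bone and on the lower side in monocytes of callus (-0.33), and this difference between tissues was not tested. Manf was at 0.69 and 0.64 in the 2 monocyte clusters of trabecular bone, at 0.72 with the profile of empty droplets subtracted, and at 0.45, no longer called, with cells thinned to 1000 UMIs. In immature neutrophils (717 and 885 cells) the median was 0.22 over 30, and Pdia6 (31.2 and 55.4 CPM, 0.74) was the only member called higher (1, where 2.02% of all genes were), with 0 lower (1.25% were), Hspa5 at 175 and 263 CPM (0.57) and Manf at 50.1 and 76.8 CPM (0.57). Only 52.7% of the GC cells and 81.9% of the control cells of this class lay in clusters with 15 cells of each library. The call of Pdia6 was lost under 3 of 16 settings, down to 0.28 with a coarser clustering, and in the 3 such clusters that could test it Pdia6 was at 0.81, 0.94 and 0.48. In promyelocytes (157 and 204 cells) 0 of 29 were called in either direction, where 0.82% of all genes were higher and 1.31% lower, and the median was 0.05.

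Erythroblasts of trabecular bone (269 and 501 cells) had 15 of 16 tested members called lower in GC, but so were 84.4% of all genes, and the member median (-1.11) did not stand apart from that of all genes (-1.10). None was called higher (background 0.423%). Less the all-gene median, Hspa5 (236 and 151 CPM) was at 0.46 and Ppp1r15a (748 and 436 CPM) at 0.32, and Hsp90b1 at -0.31 and Manf at -0.40. The 4 erythroblast clusters were shared by both libraries in unlike numbers, with 349 of the 501 GC cells and 99 of the 269 control cells in the largest, and within them the member medians were 0.08, 0.33, -0.04 and -0.07, over 3 to 14 members. The low values of the class as a whole were not seen within its clusters. In early erythroid cells (44 and 41 cells) Xbp1 (31.8 and 75.3 CPM, log2 1.12) and Asns (162 and 294 CPM, 0.84) were called higher, 2 of 19 against 4.09% of all genes, and 0 lower against 4.57%, and the call of Xbp1 was lost with each cell weighted equally (0.29).

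The remaining classes of trabecular bone rested on few cells. In stromal cells (16 and 44 cells) Hspa5 (-0.59), Hsp90b1 (-0.62), Canx (-0.68), Pdia3 (-0.78), Pdia6 (-0.76) and Xbp1 (-0.60) were called lower, 6 of 15 against 20% of all genes, and Herpud1 (0.62) and Ppp1r15a (0.64) higher, 2 against 14.7%. The call of Hspa5 was lost under 6 of 14 settings, where it came to -0.01 at the highest. In B cells, 317 in control and 16 in GC, Herpud1 was at 599 CPM (1125 UMIs) in control and 201 CPM (10 UMIs) in GC, and Hspa5 at 382 and 902 CPM, a ratio of 2.36 (1.71 to 3.19), while Hyou1 and Dnajb11 had no UMI among the 16 cells and are given no ratio. Ppp1r15a was at 71.3 and 361 CPM (134 and 18 UMIs, log2 2.26). In all 4 of 25 members were called higher against 12.4% of all genes, and 8 lower against 50.1%, of which 2 and 7 rest on 0 to 3 UMIs in GC. Only 18.9% of the control B cells lay in a cluster that held GC cells in number, and in that cluster (60 and 16 cells) Herpud1 was at -0.0091, Hspa5 at 0.64 and Ppp1r15a at 0.34, so that Herpud1 and Ppp1r15a were not called there. In T cells (47 and 166 cells) Sdf2l1 (0.81) was called higher, 1 of 20 against 12%, and Ppp1r15a (-0.60) lower, 1 against 12.8%. In mast cells, megakaryocytes and stem or progenitor cells (16 to 41 cells per library) the medians were -0.14, -0.17 and -0.09, with Calr (-0.61) lower in mast cells and Hsp90b1 (-0.89) lower in megakaryocytes. In mast cells 1 of 19 members was called higher against 7.95% of all genes, and 3 lower against 7.66%. In megakaryocytes 1 of 17 was called higher against 7.8%, and 2 lower against 8.77%.

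**Figure D5:**
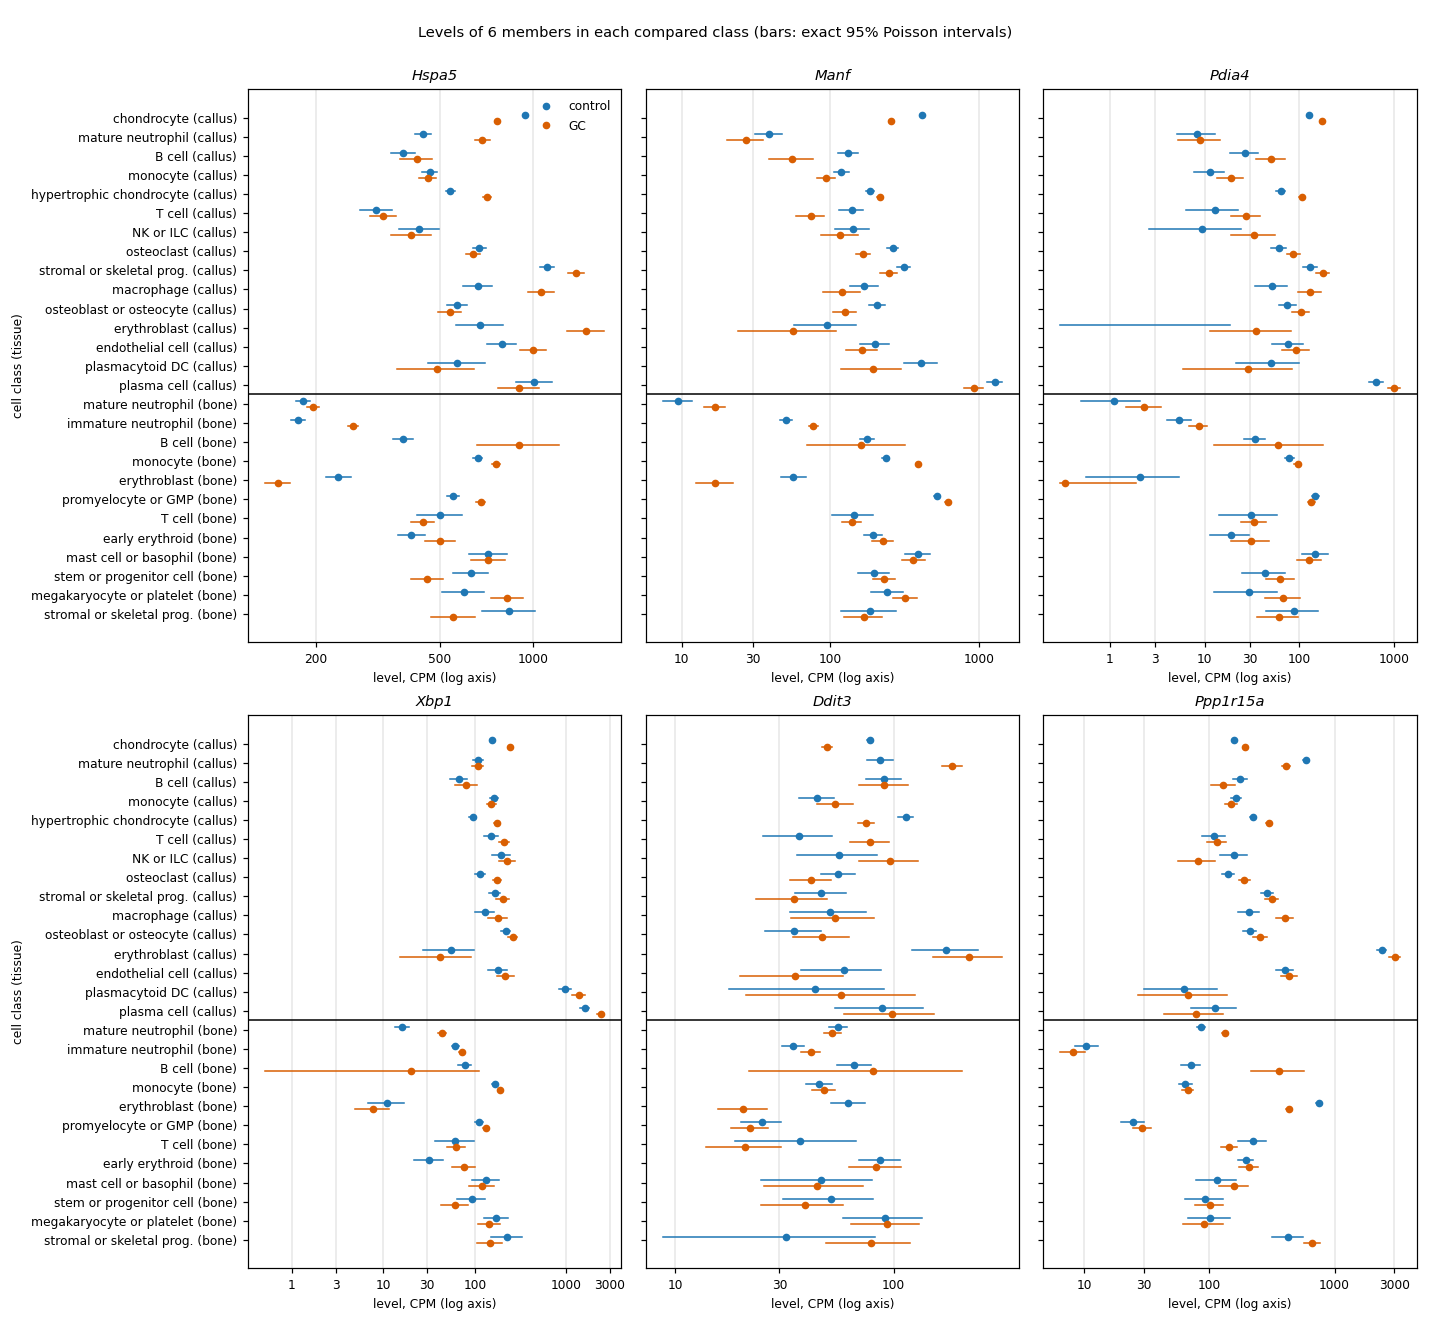
Level in CPM (log axis) of Hspa5, Manf, Pdia4, Xbp1, Ddit3 and Ppp1r15a in control (blue) and GC (orange) for each class compared, with exact 95% intervals for counting error as bars. Manf lies lower in GC than in control in most callus classes, Xbp1 is highest in plasma cells and Ppp1r15a in erythroblasts of callus.

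Other genes of the pathway, from lists kept apart from the 32, put these values in context. In chondrocytes, 22 further ER folding genes had a median of -0.16, with 3 called lower and 0 higher (2.37% and 2.21% of all genes), and among them Ero1l, an oxidase that supplies disulfide bonds, had the lowest ratio (224.5 CPM in control, 90.7 CPM in GC, log2 -1.26). The 25 other translocon and N-glycosylation genes (0.04), 16 other ERAD genes (0.10) and 22 genes of ER-Golgi transport (0.06) lay near 0, with 1 call in all of them. Of 24 other ATF4 targets (median 0.28), 4 were called higher and 1 lower, and of 14 other sensors and factors (median 0.06) 3 were called higher. Over all these lists the highest ratios in chondrocytes were those of Col1a1, a collagen (3620.1 and 9012 CPM), and of the glucocorticoid targets Dusp1 (212 and 462 CPM) and Sgk1 (521 and 1041 CPM), and the lowest, beside Ero1l, those of the immediate early genes Ier3 (768 and 141 CPM) and Junb (757 and 417 CPM). In hypertrophic chondrocytes the other ATF4 targets had a median of 0.21 (6 higher and 2 lower of 21 tested, against 5.31% and 5.07% of all genes), and Atf5, a factor of the same arm, was at 37.7 and 82.1 CPM. Ddit4, listed both as an ATF4 target and as a glucocorticoid target, went the other way there (65.9 and 23.5 CPM, log2 -1.32). In mature neutrophils of trabecular bone Slc7a11, an ATF4 target that imports cystine, was lower in GC (662 and 321 CPM), and in immature neutrophils as well (128 and 71.1 CPM), whereas Asns was at 0.38 and 0.06 there. The 21 genes of the response to tissue dissociation had a median of -0.20 in chondrocytes (3 lower and 0 higher, with sums of 8227 CPM in control and 6112 CPM in GC). In mature neutrophils of callus it was -0.78 (10 lower and 1 higher of 19 tested, against 11.6% and 12.8% of all genes, with sums of 10001 and 4754 CPM), and in monocytes of callus -0.89. Their part in the ratios of Ppp1r15a, Ddit3 and Hspa5 was not tested.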

How the data were processed

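Data of 4 libraries of droplet scRNA-Seq were used, with control and GC (1 library each) for callus and for trabecular bone. The deposited matrices hold raw UMI counts per gene and barcode, which the authors made with Cell Ranger on mm10, and the labels name Cell Ranger 5.0.1 and Seurat 3.2.0. Feature and barcode lists hold names only. Further settings of the mapping are not given in the sources used here.

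Of the matrices, 3 listed 6794880 barcodes, of which cells were called by a UMI cutoff or, from 500 UMIs, by a test against empty droplets (FDR 0.01). The GC callus matrix listed 7762 barcodes of at least 500 UMIs, all taken as called. Cells had at least 200 genes and at most 10% mitochondrial UMIs. Doublets were scored against simulated pairs and removed at 0.8% per 1000 cells (405, 428, 123 and 183 cells). The cells of each tissue were clustered together (2000 variable genes, 30 components, 15 neighbours, Leiden resolution 1, mixed clusters divided again at 0.5) with no batch correction, in Python 3.11.15 with leidenalg 0.10.2, igraph 0.11.9, scikit-learn 1.9.0, pandas 2.3.3, scipy 1.17.1 and numpy 2.4.6, and figures were drawn with matplotlib 3.10.9. Clusters were named from marker lists, by a scoring rule set after the clusters were seen, so differences from the study may come from the rebuilt names.

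UMIs were summed per class and library and scaled to CPM, in classes of at least 15 cells. Intervals are exact 95% Poisson, Clopper-Pearson or conditional ratio intervals, and for a class median the exact binomial interval over its member genes. Shares used cells thinned to 1000 UMIs with 1 fixed seed. The scripts were tested on simulated data. Every member is named. From the other lists, counts are given, and by name genes among the 3 highest and 3 lowest ratios at 50 CPM or more in chondrocytes, hypertrophic chondrocytes and mature and immature neutrophils of trabecular bone. Fkbp5 is also given in chondrocytes as a check of treatment. Members and lists were chosen with earlier results of these data known. Beside the main processing, 16 other settings were tried.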

Additional observations from a re-analysis of the deposited data

Results flagged for a closer look

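In erythroblasts, the log2 ratio of GC over control lay on opposite sides of 0 in callus and in trabecular bone for 2 members called in both tissues. Hspa5 was at 1.13 in callus (674 and 1481 CPM) and -0.63 in trabecular bone (236 and 151 CPM). Calr was at 0.78 in callus (139.8 and 243 CPM) and -1.06 in trabecular bone (93.6 and 42.3 CPM). The difference between tissues was not tested, since each group had 1 library. In trabecular bone the median over all genes tested in this class was -1.10, and both members came out above 0 less that median (0.46 and 0.035). Within the erythroblast clusters of trabecular bone that could test them, Hspa5 was at 0.88, 0.35 and -0.19, and Calr at 0.27 and 0.043. The low values of the class as a whole were therefore not seen within its clusters for these genes.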

How the results depend on the processing

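No paired analysis was possible because each group had 1 library, and for the same reason no replicate could be left out. Of 389 values of the 27 class medians under 16 other settings, 364 moved by less than their interval and 25 moved further. That interval is taken over the member genes of a class, so it is a spread between genes and not an error of measurement. As called values, 0 turned sides. Only medians past 1.5-fold could count as turned, so that count says little for medians near 0. Among the medians that changed sign under settings given below were those of plasma cells, osteoclasts and early erythroid cells. Those of B cells of trabecular bone and of stromal cells of callus did so too. Less the median of all genes, the median became 0.24 in T cells of callus and 0.42, -0.017 and 0.11 in B cells, erythroblasts and mature neutrophils of trabecular bone. With CPM taken without mitochondrial, ribosomal, hemoglobin and collagen genes it was 0.063 in B cells, 0.26 in T cells and -0.38 in erythroblasts of trabecular bone. With a pseudocount of 20 CPM it was 0.28 in mature neutrophils of trabecular bone. With each cell weighted equally it was -0.086 in early erythroid cells and 0.16 in monocytes of trabecular bone. With cells thinned to 1000 UMIs it was -0.16 in osteoclasts, 0.36 in plasma cells and 0.29 in monocytes of trabecular bone. With a UMI cutoff alone it was 0.20 in plasma cells, 0.20 in mature neutrophils and 0.30 in monocytes of trabecular bone. In plasma cells it was 0.24 with at most 5% mitochondrial UMIs and also with no doublets removed. With at least 500 genes per cell it was -0.071 in stromal cells of callus, -0.56 in erythroblasts and 0.30 in immature neutrophils of trabecular bone. At a resolution of 0.6 it was 0.56 in hypertrophic chondrocytes and 0.052 in immature neutrophils of trabecular bone, and with no second division -0.73 in erythroblasts and 0.33 in immature neutrophils. Without thinning, the median share of cells with a UMI of a member was 83.2% and 53.3% in control and GC chondrocytes and 8.16% and 10.9% in control and GC mature neutrophils of trabecular bone.

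Of 107 single values called with more than 3 UMIs in each library, 78 were no longer called under at least 1 setting and 8 had a value on the other side of 0. In erythroblasts of trabecular bone these were, less the median of all genes, Hspa5 (0.46), Dnajb9 (0.37), Calr (0.035), Sec61b (0.16), Herpud1 (0.20), Ppp1r15a (0.32) and Sesn2 (0.16), with CPM without the 4 gene groups Hspa5 (0.23) and Ppp1r15a (0.10), and with at least 500 genes per cell Dnajb9 (0.30) and Sec61b (0.12). In monocytes of callus it was Sesn2 (0.13) with a UMI cutoff alone. The causes were not tested. Subtraction of free RNA could be run in trabecular bone only. Depth limits the set in small classes, where 7 to 17 of the 32 members reached 50 UMIs in erythroblasts and plasmacytoid dendritic cells of callus and in stromal, stem or progenitor cells, erythroblasts and megakaryocytes of trabecular bone.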
